A study of Drosophila simulans with 4 samples.

Results

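The circadian clock genes examined here were the activators Clk (FBgn0023076) and cyc (FBgn0023094), the repressors per (FBgn0003068) and tim (FBgn0014396), the regulators vri (FBgn0016076) and Pdp1 (FBgn0016694), the photoreceptor gene cry (FBgn0025680) and the kinase gene dco (FBgn0002413), together with the output gene takeout, to (FBgn0039298). These 9 genes were chosen by their FlyBase identifiers, from the known design of the fly clock and with earlier results of these data known. All 9 were found among the 15358 genes listed. The question was whether their expression differed between an Afrotropical and a European population of Drosophila simulans, and between rearing media.

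Whole bodies of adult males were sequenced in 4 libraries, each made from 100 males that were sons of 100 different wild-caught females, with 4 RNA extractions pooled per library. There were 2 libraries from Gotheron, in an agricultural area of the Rhône Valley in France, and 2 from Mayotte, an island within the ancestral range of the species. In each population 1 library came from lines reared on cornmeal medium and 1 from lines reared on the local fruit, apple in Gotheron and banana in Mayotte, so the natural medium was not the same food in both places. The males were first-generation offspring of wild-caught females, and the labels name no transgene, mutation or treatment. The labels state 7 days of growth for every library, and the methods a shorter time of aging. Neither the hour at which the males were frozen nor the light regime is stated in the labels or methods, and both matter for messengers that cycle over the day. The methods also report that bacteria contaminated the banana medium in Mayotte.

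In the fly clock, the proteins CLOCK and CYCLE form a pair that switches on per, tim, vri and Pdp1. The proteins PERIOD and TIMELESS return to the nucleus and block that pair, which closes the first loop. VRILLE represses and PDP1 activates Clk, which closes the second loop. In D. melanogaster kept in light and dark, the messengers of per, tim, vri and Pdp1 reach their highest level in the evening and night, while those of Clk and cry are highest late in the night and in the morning. The messengers of cyc and dco do not cycle strongly.

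The values are normalised counts, meaning reads per gene brought by 1 factor per library to a common total of 10052291.25. Between 9829895 and 10365609 reads fell on the listed genes per library. Reads come from the 3′ end of transcripts, so a count does not grow with gene length. In these equal-total values the median gene lay 0.12 higher in Gotheron on the log2(normalised count + 1) scale, over 12508 genes whose mean reached 5, and this shift was removed by TMM scaling (-0.004), which levels the bulk of the genes. Differences of the clock genes are to be read against that shift. A change in a whole-body library can come from fewer cells that express a gene or from less RNA per cell, which cannot be told apart.

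Of the 9 genes, 1 passed the threshold between the populations, namely vri, in a 2-step procedure built after the methods, which tests population means against a dispersion smoothed over genes of similar level. The test was a Wald test, and the likelihood ratio test that the methods name called 2 of the 9, vri and cry. The share of all genes called by the likelihood ratio test was not computed, so that count is not read as a result about the 9 genes. In Mayotte vri was 1.52 times as high. Of the other 3 genes that peak in the evening and night, per, tim and Pdp1 had population means 1.44, 1.15 and 1.07 times as high in Mayotte, none past the threshold. Of the 2 that peak late in the night and in the morning, cry and Clk had means 1.45 and 1.19 times as high in Gotheron, also not past it. The means of cyc, dco and to had Gotheron over Mayotte ratios of 1.02, 1.10 and 0.901, and these genes did not pass either. The populations overlapped in tim and Pdp1, and the cornmeal libraries were nearly level in Clk. Whether genes of the same phase moved together was not tested.

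**Figure D1:**
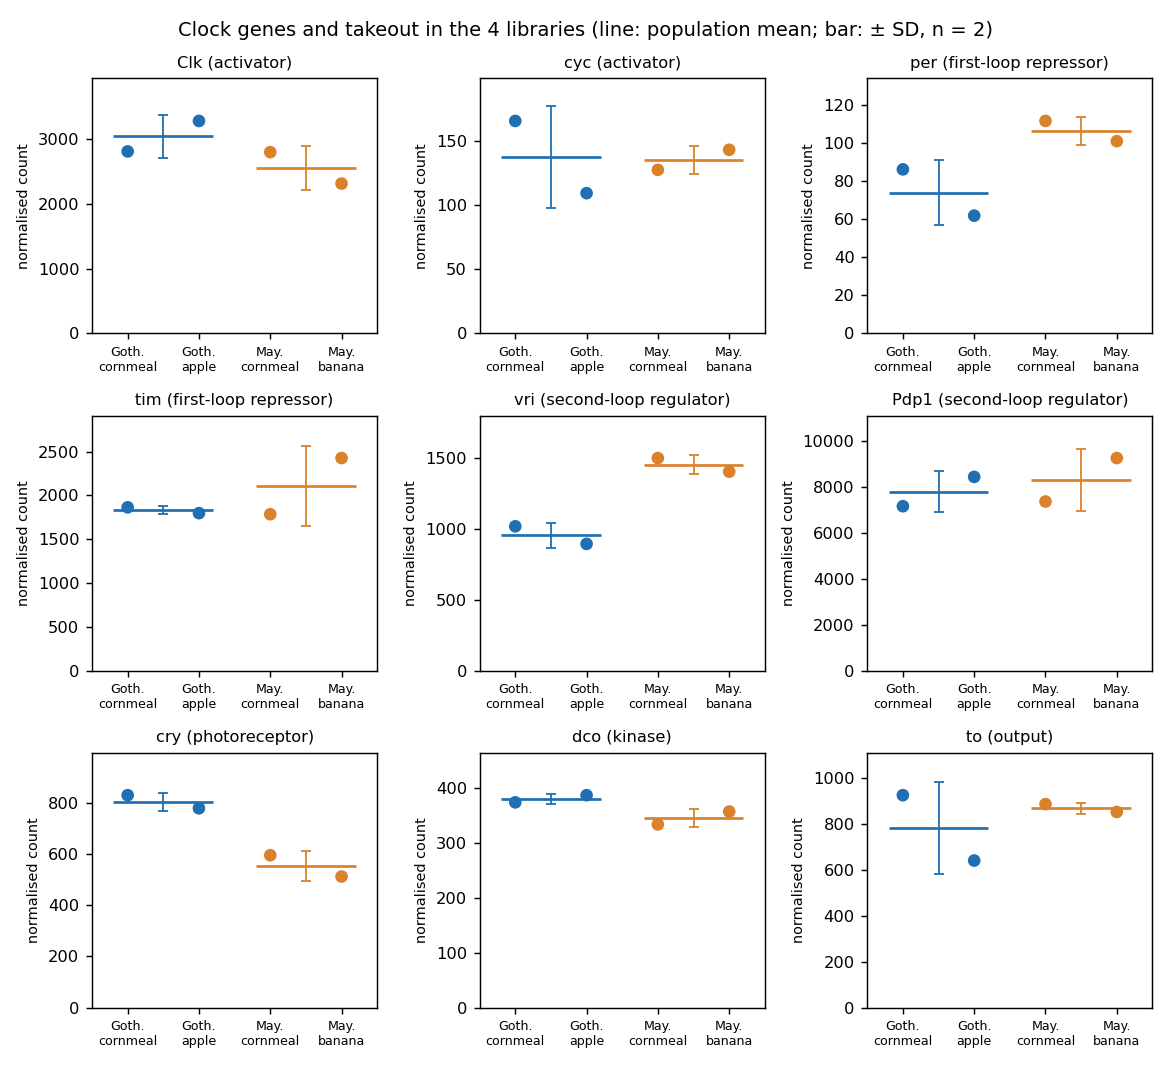
Normalised count (vertical axes, from 0) of each gene in the 4 libraries, Gotheron in blue and Mayotte in orange, with the population mean as a line and ± SD (n = 2) as a bar. The points of vri and per lie higher in both Mayotte libraries, those of cry and dco lie higher in both Gotheron libraries, those of Clk do so by a narrow margin (2803 and 2792), and those of tim, cyc, Pdp1 and to overlap.

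The gene vri encodes the basic zipper repressor VRILLE. Its normalised counts were 1016 in Gotheron cornmeal, 892 in Gotheron natural, 1496 in Mayotte cornmeal and 1400 in Mayotte natural. Both Mayotte libraries stood well above both Gotheron libraries, and the media differed little within either population. Gotheron had a mean of 954 ± 87.4 (SD, n = 2) and Mayotte one of 1448 ± 67.7 (SD, n = 2). The resulting log2 ratio, Gotheron over Mayotte, was -0.60 with a standard error of 0.18 (adjusted p = 0.0249 from the Wald test of the 2-step procedure, with Benjamini-Hochberg adjustment over all listed genes). The 95% interval of the Mayotte over Gotheron ratio was 1.181 to 1.95. Under TMM scaling, which takes out the general shift, the log2 ratio was -0.73 (adjusted p = 0.000674, 2-step procedure). Among all listed genes, 2.10% were called higher in Mayotte and 3.12% higher in Gotheron by the same procedure, and of these 9 genes 1 and 0 were. The call of vri was lost without Gotheron replicate 2, the natural library (adjusted p = 0.0881, 2-step procedure), and without Mayotte replicate 1, the cornmeal library (adjusted p = 0.130, 2-step procedure). Without the Mayotte natural library, whose medium held bacteria, the adjusted p was 0.0208 in the 2-step procedure. Its adjusted p ranged from 0.000234 to 0.130 over all alternatives of the procedure.

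The gene Pdp1 encodes the basic zipper activator that acts on Clk in opposition to VRILLE. It had normalised counts of 7155 and 8432 in Gotheron cornmeal and natural, and 7360 and 9251 in Mayotte cornmeal and natural. The 2 natural libraries were the high ones and the populations overlapped. The log2 ratio of Gotheron over Mayotte was -0.09 (95% interval -0.50 to 0.32, adjusted p = 0.938 in the 2-step procedure). For the Mayotte over Gotheron ratio the interval ran from 0.801 to 1.42, and these libraries did not exclude a difference within it. The direction turned without Gotheron replicate 1 (0.02) and without Mayotte replicate 2 (0.08). The ratio of vri to Pdp1 within a library, which no scaling of libraries can change, was 0.142 and 0.106 in Gotheron cornmeal and natural against 0.203 and 0.151 in Mayotte cornmeal and natural. It was lower in both Gotheron libraries, and 1.43 times as high on average in Mayotte.

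The gene per encodes PERIOD. It was the least counted of the 9, with 62 to 109 reads per library. Normalised counts of 86.1 and 61.8 were found in Gotheron cornmeal and natural, and 111 and 101 in Mayotte cornmeal and natural. Both Mayotte libraries were higher than both Gotheron libraries. The means were 73.9 ± 17.2 (SD, n = 2) and 106 ± 7.50 (SD, n = 2), a log2 ratio of -0.52 (95% interval -0.99 to -0.05). The adjusted p was 0.223 in the 2-step procedure, so per did not pass the threshold although its own interval leaves out 0. Without Gotheron replicate 1 the log2 ratio was -0.78 and passed (adjusted p = 0.0435, 2-step procedure), and with the dispersion taken within populations it passed as well (adjusted p = 0.0467, 2-step procedure). Over all alternatives of the procedure the adjusted p ranged from 0.0435 to 0.608.

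The gene tim encodes TIMELESS, the light-sensitive partner of PERIOD. Normalised, it had counts of 1863 and 1797 in Gotheron cornmeal and natural, and 1784 and 2425 in Mayotte cornmeal and natural. A single library, Mayotte natural, was high, and the other 3 lay within 1784 to 1863. The populations overlapped. The log2 ratio was -0.20 (95% interval -0.56 to 0.16, adjusted p = 0.662 in the 2-step procedure). Without Mayotte replicate 2, the natural library, it was 0.04. The ratio of per to tim within a library was 0.0462 and 0.0344 in Gotheron and 0.0625 and 0.0416 in Mayotte, cornmeal first, and the populations overlapped in it.

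The gene cry encodes the blue-light photoreceptor CRYPTOCHROME, which in flies triggers the loss of TIMELESS in light. The normalised counts were 829 and 778 in Gotheron cornmeal and natural, and 595 and 512 in Mayotte cornmeal and natural. Both Gotheron libraries were higher than both Mayotte libraries, with means of 804 ± 35.99 (SD, n = 2) and 554 ± 58.8 (SD, n = 2). The log2 ratio was 0.54 (95% interval 0.18 to 0.90) and the adjusted p was 0.0580 in the 2-step procedure, so cry did not pass the threshold. It passed with the likelihood ratio test that the methods name (adjusted p = 0.0475, 2-step procedure). It also passed with medium as a replicate block (adjusted p = 0.0372, 2-step procedure), with the dispersion taken within populations (adjusted p = 0.00146) and without Gotheron replicate 2 (adjusted p = 0.0202). Under TMM scaling the log2 ratio was 0.41 (adjusted p = 0.142, 2-step procedure). Over all alternatives of the procedure the adjusted p ranged from 0.00146 to 0.324.

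The gene Clk encodes the activator CLOCK. This gene had normalised counts of 2803 and 3272 in Gotheron cornmeal and natural, and 2792 and 2308 in Mayotte cornmeal and natural. The 2 cornmeal libraries were nearly level, and the populations differed in the natural libraries, where Gotheron was high and Mayotte low. The log2 ratio was 0.25 (95% interval -0.12 to 0.62, adjusted p = 0.555 in the 2-step procedure). Under TMM scaling, which takes out the general shift, it was 0.13.

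Its partner cyc had normalised counts of 166 and 110 in Gotheron cornmeal and natural, and 128 and 144 in Mayotte cornmeal and natural. The Gotheron libraries held both the highest and the lowest value. The log2 ratio of the means was 0.02 (95% interval -0.39 to 0.44), and the mean of the log2 values differed by -0.01 in limma, so no direction can be given. The direction in the 2-step procedure turned under TMM scaling (-0.11). The ratio of Clk to cyc within a library was 16.9 and 29.8 in Gotheron and 21.8 and 16.1 in Mayotte, cornmeal first, and overlapped between the populations.

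The gene dco encodes the casein kinase that phosphorylates PERIOD, also known as doubletime. Its normalised counts were 375 and 388 in Gotheron cornmeal and natural, and 334 and 358 in Mayotte cornmeal and natural. It was the most even of the 9, with a highest value 1.16 times its lowest. Both Gotheron libraries were above both Mayotte libraries by a small margin. The log2 ratio of 0.14 (95% interval -0.23 to 0.50, adjusted p = 0.808 in the 2-step procedure) was close to the general shift of 0.12, and was 0.01 under TMM scaling.

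The gene to, takeout, is a clock output in D. melanogaster that is expressed strongly in the fat body of the male head and is induced by starvation. It encodes a secreted protein related to juvenile hormone binding proteins. Its normalised counts were 925 and 641 in Gotheron cornmeal and natural, and 887 and 852 in Mayotte cornmeal and natural. The Gotheron natural library alone was low and the other 3 were alike. The log2 ratio was -0.15 (95% interval -0.51 to 0.20, adjusted p = 0.769 in the 2-step procedure), and it was 0.09 without Gotheron replicate 2. The ratio of to to vri within a library was 0.911 and 0.718 in Gotheron and 0.593 and 0.609 in Mayotte, cornmeal first, so that both Gotheron libraries were higher.

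**Figure D2:**
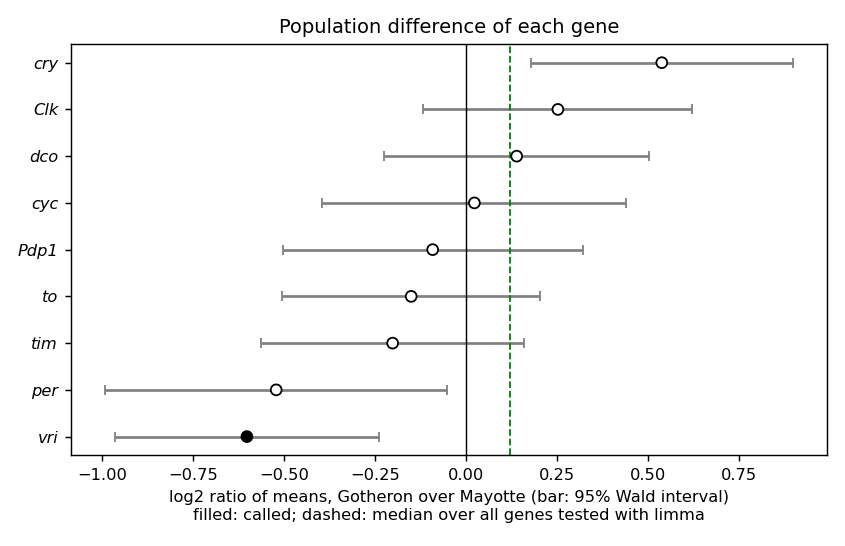
Log2 ratio of population means, Gotheron over Mayotte (horizontal axis), with its 95% Wald interval, for each of the 9 genes. The filled point is vri (-0.60), the gene called by the 2-step procedure, open points were not called, and the dashed line marks the median of all genes tested with limma (0.12).

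Non-overlap of the populations was found in 5 genes, namely per and vri with both Mayotte libraries higher and Clk, cry and dco with both Gotheron libraries higher. Over all listed genes 13.4% had both Mayotte libraries higher and 30.8% had both Gotheron libraries higher, so non-overlap by itself is common here. In Clk it rested on values of 2803 and 2792. The absolute log2 difference was exceeded by 13.5% of the tested genes for vri, by 16.6% for cry and by 17.0% for per. For the other 6 genes 46.7% or more of the tested genes had a larger difference. The median absolute difference was 0.19 over the 9 genes and 0.24 over all genes tested. In limma on log2(normalised count + 1), which takes the spread from within the populations, 0 of the 9 genes passed, against 1.09% of the genes tested. Of the 9, 2 had an unadjusted limma p under 0.05, a share to be read against 14.0% of all genes tested. They were vri (log2 -0.60, standard error 0.15, limma adjusted p = 0.142) and cry (log2 0.54, standard error 0.15, limma adjusted p = 0.185). On whole reads of the 3 libraries for which they could be recovered with certainty, which leaves out Gotheron natural, 1 Gotheron library stood against 2 of Mayotte and was assumed to vary like them. In that comparison edgeR called 1 of the 9, vri (adjusted p = 0.0492 by edgeR's quasi-likelihood test), and DESeq2 called 0, with vri at an adjusted p of 0.285. Of all genes they tested, edgeR called 4.26% and DESeq2 1.99%. An unadjusted p under 0.05 was given to 2 of the 9 by edgeR, against 16.5% of all genes, and to 1 of the 9 by DESeq2, against 4.54% of all genes with a p-value.

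**Figure D3:**
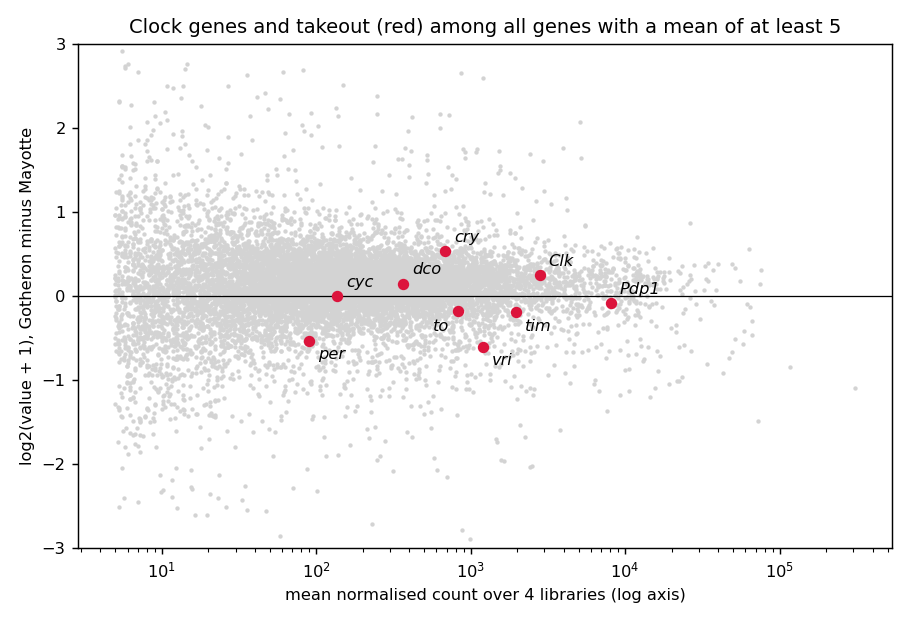
Difference of log2(normalised count + 1), Gotheron minus Mayotte (vertical axis), against the mean normalised count (horizontal log axis), for all genes of mean 5 or more in grey and the 9 genes in red. Of the 9, cry (0.54), per (-0.53) and vri (-0.60) differ most, and 13.5% or more of all genes of mean 5 or more differ more. The 30 genes with a difference above 3 in size are outside the range drawn.

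The ratios between the genes within a library do not depend on how libraries were scaled. The ratio of vri to Clk was 0.362 and 0.273 in Gotheron cornmeal and natural, and 0.536 and 0.607 in Mayotte cornmeal and natural. Both Mayotte libraries were higher, by 1.81 times on average (geometric means). The ratio of tim to cry was 2.25 and 2.31 in Gotheron against 2.998 and 4.74 in Mayotte, 1.65 times as high in Mayotte without overlap. By itself cry separated the populations, whereas tim did not. The pair of members that moved furthest apart, vri to cry, was singled out after the values were seen. This ratio was 1.22 and 1.15 in Gotheron and 2.51 and 2.73 in Mayotte, 2.21 times as high in Mayotte. With 2 libraries against 2, the smallest two-sided p of an exact permutation test is 0.33, and these ratios are given as values. Of all 36 pairs of the 9 genes, 22 had ratios without overlap between the populations. This count is given as a value and not as a result about the 9 genes. These pairs share genes with each other, and the share over pairs drawn from all genes was not computed.

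**Figure D4:**
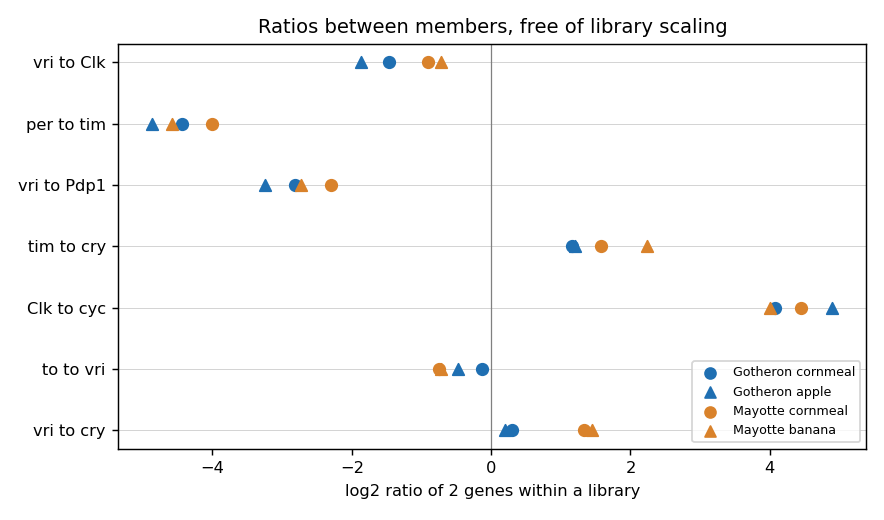
Log2 ratio of 2 genes within a library (horizontal axis) for 7 pairs, with circles for cornmeal, triangles for fruit, blue for Gotheron and orange for Mayotte. Blue and orange mix in per to tim and Clk to cyc. They separate in vri to Clk, vri to Pdp1, tim to cry, to to vri and vri to cry. Some pairs not drawn that hold neither vri nor cry, such as Clk to per and per to dco, separate as well.

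The likeness of 2 patterns was measured as the root mean square difference, over the 4 libraries, of log2(normalised count + 1) after subtracting the mean of each gene. The median over the 36 pairs of members was 0.305. The pair most alike was per and vri (0.108), high in both Mayotte libraries, followed by cyc and to (0.118), both lowest in Gotheron natural, and tim and Pdp1 (0.120), both highest in Mayotte natural. The pair least alike was vri and cry (0.575). Among the other 9252 genes with a mean of at least 50, the nearest to vri was FBgn0051708 (0.0275), with normalised counts of 47.6 and 39.9 in Gotheron and 67.5 and 63.0 in Mayotte. The nearest to takeout was FBgn0034636 (0.0156), with normalised counts of 487 and 336 in Gotheron and 454 and 447 in Mayotte. Patterns over 4 libraries are short, and close matches are easily found among so many genes.

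Each population and medium had 1 library, so how the population difference varied between media is given as ratios with exact Clopper-Pearson intervals from recovered reads, which cover counting error only. The Gotheron natural reads used for this come from a factor too close to 1 to be recovered with certainty. For vri the ratio of Gotheron over Mayotte was 0.679 (95% interval 0.626 to 0.736) on cornmeal and 0.637 (0.585 to 0.693) on the natural media. For cry it was 1.39 (1.25 to 1.55) and 1.52 (1.36 to 1.70). The intervals of the 2 pairs of libraries overlapped for both genes, and also for dco, with 1.12 (0.963 to 1.30) and 1.08 (0.937 to 1.25). For per the ratio was 0.772 (0.575 to 1.03) on cornmeal and 0.613 (0.440 to 0.847) on the natural media, with intervals that overlapped. For Pdp1 it was 0.972 (0.941 to 1.005) and 0.911 (0.885 to 0.939), with intervals that did not overlap.

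The ratio for Clk was 1.004 (95% interval 0.952 to 1.06) on cornmeal and 1.42 (1.34 to 1.495) on the natural media. For tim it was 1.04 (0.977 to 1.12) and 0.741 (0.697 to 0.787), for to it was 1.04 (0.950 to 1.15) and 0.752 (0.678 to 0.833), and for cyc it was 1.30 (1.02 to 1.65) and 0.764 (0.591 to 0.984). The intervals of the 2 media did not overlap in these 4 genes. Such intervals cover counting error only, and the share of all genes without overlap was not computed. In tim, to and cyc the direction turned between the media, though the cornmeal intervals of tim and to included equal levels. Population differences of opposite direction in the 2 media were found in 38.0% of all genes of mean 5 or more, so 3 of 9 is no larger share.

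**Figure D5:**
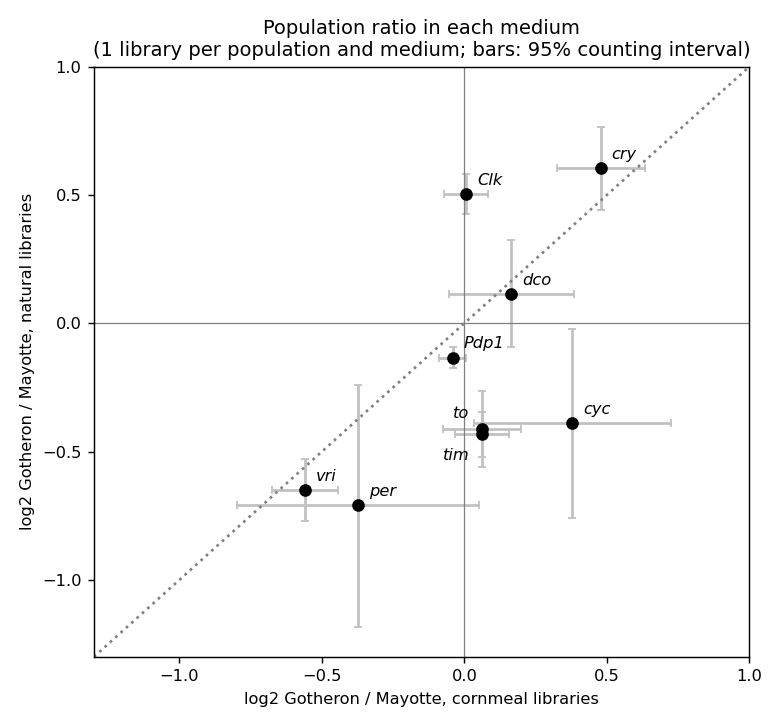
Log2 ratio of Gotheron over Mayotte in the natural libraries (vertical axis) against that in the cornmeal libraries (horizontal axis) for the 9 genes, with 95% counting intervals as bars and equality as the dotted line. The genes vri and cry lie near the line at opposite ends, and Clk, tim, to and cyc lie away from it.

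The natural media were compared with cornmeal across both populations with limma, with population as a term. Of the 9 genes 0 passed, and 0 had an unadjusted p under 0.05. Among all genes tested 0.0160% passed, that is 2 genes, with 862 at an unadjusted p under 0.05, so few genes of any kind were called. The values nearest to a difference were a natural minus cornmeal log2 of -0.29 for to (standard error 0.17, limma adjusted p = 0.840), -0.31 for per (standard error 0.22, limma adjusted p = 0.879) and 0.28 for Pdp1 (standard error 0.22, limma adjusted p = 0.896). In Pdp1 the natural library was higher than the cornmeal library in both populations, by 1.178 times (95% counting interval 1.14 to 1.22) in Gotheron and 1.26 times (1.22 to 1.30) in Mayotte. In to it was lower in Gotheron, at 0.692 times the cornmeal library (0.625 to 0.767), and 0.961 times (0.874 to 1.06) in Mayotte. In Clk the natural library was higher in Gotheron, at 1.17 times (1.11 to 1.23), and lower in Mayotte, at 0.827 times (0.782 to 0.874).

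The files pair no other identifiers with gene names and none of the identifiers occurs in the reference gene table, so the other 16 clock genes of a prepared list, such as the neuropeptide gene Pdf, were not analysed here. For the same reason the whole-body label could not be checked against tissue markers.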

How the data were processed

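The authors trimmed reads with seqclean, mapped 32-base words with ELAND, first to the D. melanogaster genome and the rest to that of D. simulans, and moved the latter to orthologs. CASAVA is named in the submitters' processing notes. Versions and builds: not given in the sources used here. Values as deposited are a signal, read counts per gene times 1 factor per library (100% whole after division, within 0.01). Reads that match near-identical copies were not examined.

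Under R 4.3.3 the 2-step procedure was computed from these values with a Pearson dispersion per gene around 1 mean, loess smoothing of the log dispersion on the log mean (span 0.75, degree 2), a Wald test of the population means, Benjamini-Hochberg adjustment over 15358 genes at 0.05, and no overlap between populations. The methods name a likelihood ratio test, tried as an alternative. They also left out immunity related genes before testing, whereas all 15358 listed genes were kept here. Genes of mean 5 or more were also tested with limma 3.58.1, on log2(normalised count + 1) and with a trended prior. edgeR 4.0.16 and DESeq2 1.42.0 were run on whole reads of 3 libraries. Scripts were tested on simulated data. Alternatives were other dispersions, curves, scalings, filters, pseudocounts, a block for medium and each library left out. Replicate 1 is cornmeal and replicate 2 natural, numbered here. The main p-values rest on a spread over all 4 libraries shared by genes of like level, those of limma on the spread within populations, whose 2 libraries differ in medium. All 9 genes were named. The genes, lists and tests were chosen with earlier results of these data known. Sequences of the genes were not used here.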

Additional observations from a re-analysis of the deposited data

Results flagged for a closer look

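In 4 of the 9 genes the effect of one factor had opposite directions in the 2 levels of the other, with 1 library for each, so none of these differences was tested. Over all genes of mean 5 or more, 61.2% had such a reversal, and 48.0% had medium differences of opposite direction in the 2 populations. The log2 population difference (Gotheron minus Mayotte) on cornmeal minus that on the natural media was 0.77 for cyc, 0.49 for tim and 0.47 for to, each with Gotheron higher on cornmeal and Mayotte higher on the natural media. It was -0.50 for Clk, where the natural library was above the cornmeal library in Gotheron and below it in Mayotte. Counting error is wide for cyc, with 110 to 164 reads per library. On cornmeal the 95% counting intervals of the Gotheron over Mayotte ratio included equal levels for tim (0.977 to 1.12) and to (0.950 to 1.15).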

How the results depend on the processing

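In the 2-step procedure 1 of the 9 genes was called. The count was 2 with the likelihood ratio test (vri and cry), 3 with the dispersion within populations (vri, cry and per) and 2 with medium as a replicate block (vri and cry), and from 0 to 2 when each library was left out. It stayed at 1 under the 3 other scalings, the quadratic curve, the filter on low values and no consistency filter. The share of all genes called was not computed under the alternatives of this procedure or of limma. These counts are therefore given as values and not as a result about the 9 genes. With limma the count of 0 became 0 to 2 when each library was left out (vri and per without Gotheron replicate 1, cry without Gotheron replicate 2) and was 0 otherwise. The count tools, added after seeing the data, gave 1 with edgeR and 0 with DESeq2. In the medium comparison 0 genes passed under every alternative run, and leaving out a library leaves no residual degrees of freedom there, so that was not run.

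The log2 population difference (Gotheron minus Mayotte) of cyc in the 2-step procedure was -0.11 with TMM scaling, -0.10 with median-of-ratios scaling and -0.034 with equal totals without the 10 most abundant genes. With each library left out it ranged from -0.31 to 0.29 for cyc, from -0.41 to 0.036 for tim, from -0.25 to 0.083 for Pdp1 and from -0.44 to 0.090 for to in the 2-step procedure. In limma these ranges were -0.30 to 0.29, -0.41 to 0.036, -0.25 to 0.078 and -0.44 to 0.090. The directions of vri, per, cry, Clk and dco held under all alternatives of both tests, with dco at 0.01 under TMM scaling. With that scaling the 2-step log2 difference was larger in size for vri (-0.73), per (-0.65) and tim (-0.33). The same held for to (-0.28) and Pdp1 (-0.22). It was smaller for cry (0.41), Clk (0.13) and dco. With edgeR on 3 libraries dco was at -0.02. The cause of these changes was not tested. Depth limits per and cyc most.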
